A study of Mus musculus with 12 samples.

Results

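The genes described here are the secreted Wnt proteins, the receptors that bind them, the secreted proteins that modify the contact, and a small set of readouts of the pathway, in neonatal mouse heart cells and in cardiac fibroblasts exposed to reprogramming factors. They were chosen by symbol from the table of all genes: every numbered Wnt, Fzd, Sfrp, Dkk and Rspo gene, plus Frzb, Wif1, Lrp5, Lrp6, Axin2, Lef1, Tcf7 and Ctnnb1. This gave 49 of the 23423 genes in the table: 19 Wnt ligands, 4 R-spondins, 10 Frizzled receptors, 2 co-receptors, 10 secreted antagonists, and 4 genes for beta-catenin and its nuclear readout. The 12 RNA libraries form 6 groups of 2, and all cells came from CD1 mice at postnatal day 1.5. Fresh cardiac fibroblasts had been purified with magnetic beads against the surface protein Thy1, and fresh cardiomyocytes came from a commercial isolation kit for neonatal hearts. The remaining 4 groups were cardiac fibroblasts in culture, collected at day 3 after viral transduction. Of these, 2 groups carried a control retrovirus (lacZ in the titles, an empty vector in other labels) or a retrovirus with Mef2c, Gata4 and Tbx5, cardiac transcription factors together called MGT. A further 2 groups received MGT plus a lentivirus, which delivered either a hairpin without a target (shNT) or one directed at Ptbp1 (shPtbp1). The MGT factors are used to turn fibroblasts directly into cardiomyocyte-like cells, and the submitters made these bulk libraries as references for single-cell work and for the study of Ptbp1 depletion.

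Wnt proteins are secreted, lipid-modified signals. In the canonical branch a Wnt joins a Frizzled receptor to the co-receptor Lrp5 or Lrp6, the complex that destroys beta-catenin (Ctnnb1) is switched off, and beta-catenin enters the nucleus to act with Tcf7, Lef1 and their relatives. In the other branches Frizzled receptors act on cell polarity and calcium without beta-catenin. Secreted antagonists of the Sfrp family and Wif1 bind Wnts themselves, Dkk proteins such as Dkk2 act on the co-receptors, and R-spondins keep Frizzled receptors on the cell surface. In the heart the pathway is known for stage-dependent effects on cardiac differentiation and for its activity in fibroblasts after injury.

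The strand setting of the authors' counting is not given in what was used, and exons of Axin2, Ctnnb1, Fzd5, Fzd6, Lef1, Rspo3, Sfrp2, Wnt11, Wnt5a and Wnt7b overlap a gene on the opposite strand, so the values of these 10 genes are less certain. Values are scaled CPM, that is reads per 1000000 assigned reads, divided by a factor per library. Log2 fold changes were computed from scaled CPM + 0.5, which understates the change of low genes, and are given with their standard error (SE) from limma. A gene was called where its adjusted p was below 0.05 over all 13977 genes tested. The libraries held 49320858 to 94005212 reads, so that 1 read was worth 0.0106 to 0.0203 CPM. The labels do not state whether the 2 libraries of a group are from different animals or cultures. The p-values therefore measure only the spread between these samples, which may be technical. Ptbp1 was 81.1 and 78.5 scaled CPM in the shPtbp1 libraries and 355 to 491 in the other 10, also in the second shPtbp1 library, for which 1 label names Ptbp2. Tbx5 was 1770 and 1847 with MGT and 645 and 678 in the control cultures, against 6.94 and 7.52 in fresh fibroblasts, and the origin of these control reads was not tested. The 10 cardiomyocyte markers summed to 17390 to 18190 scaled CPM in fresh cardiomyocytes and to 1787 to 1832 in fresh fibroblasts. The 10 fibroblast markers summed to 22220 to 22340 and to 40930 to 41850, so that the cardiomyocyte preparation also held fibroblast transcripts.

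Of the 49 genes, 36 passed the filter of 1 CPM in at least 2 libraries. The other 13 were 9 ligands (Wnt1, Wnt3, Wnt3a, Wnt6, Wnt7a, Wnt7b, Wnt8a, Wnt8b and Wnt10a), the antagonists Dkk1, Dkk4 and Sfrp5, and Rspo4. The highest value among these 13 genes in any library was 0.606 scaled CPM, for Wnt7a in fresh fibroblast replicate 1. Wnt3a, the ligand often used to stimulate the canonical branch in culture, had 1 read in all 12 libraries together. Several Wnt genes lie in pairs, which share descent. Wnt9a and Wnt3a are 16175 bases apart on chromosome 11, and Wnt9b and Wnt3 are 24328 bases apart on the same chromosome (GRCm38, the mm10 build). In both pairs the Wnt9 gene was expressed in fresh cells and its partner had at most 6 reads in any library. The pair of Wnt10b and Wnt1 on chromosome 15, with 11706 bases between them, held a low gene and one under the filter, and both Wnt6 and Wnt10a on chromosome 1 were under the filter.

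Levels of different genes were compared per kilobase of exon. In fresh fibroblasts the 10 secreted antagonists summed to 142 and 143 scaled CPM per kilobase, the 10 Frizzled receptors to 67.6 and 67.2, and the 19 ligands to 19.7 and 19.4. In the control cultures the antagonists stood at 44.6 and 43.5, the Frizzled receptors at 75.3 and 80.7, and the ligands at 6.88 and 7.13. The sums of antagonists and ligands were thus lower in culture, in both libraries, whereas that of the receptors was higher. With MGT the receptor sum was 98.9 and 102, 96.5 and 97.0 in the shNT cultures and 108.7 and 109.3 in the shPtbp1 cultures. The ligand sum was 5.85 and 5.19 with MGT, below both control libraries.

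**Figure D1:**
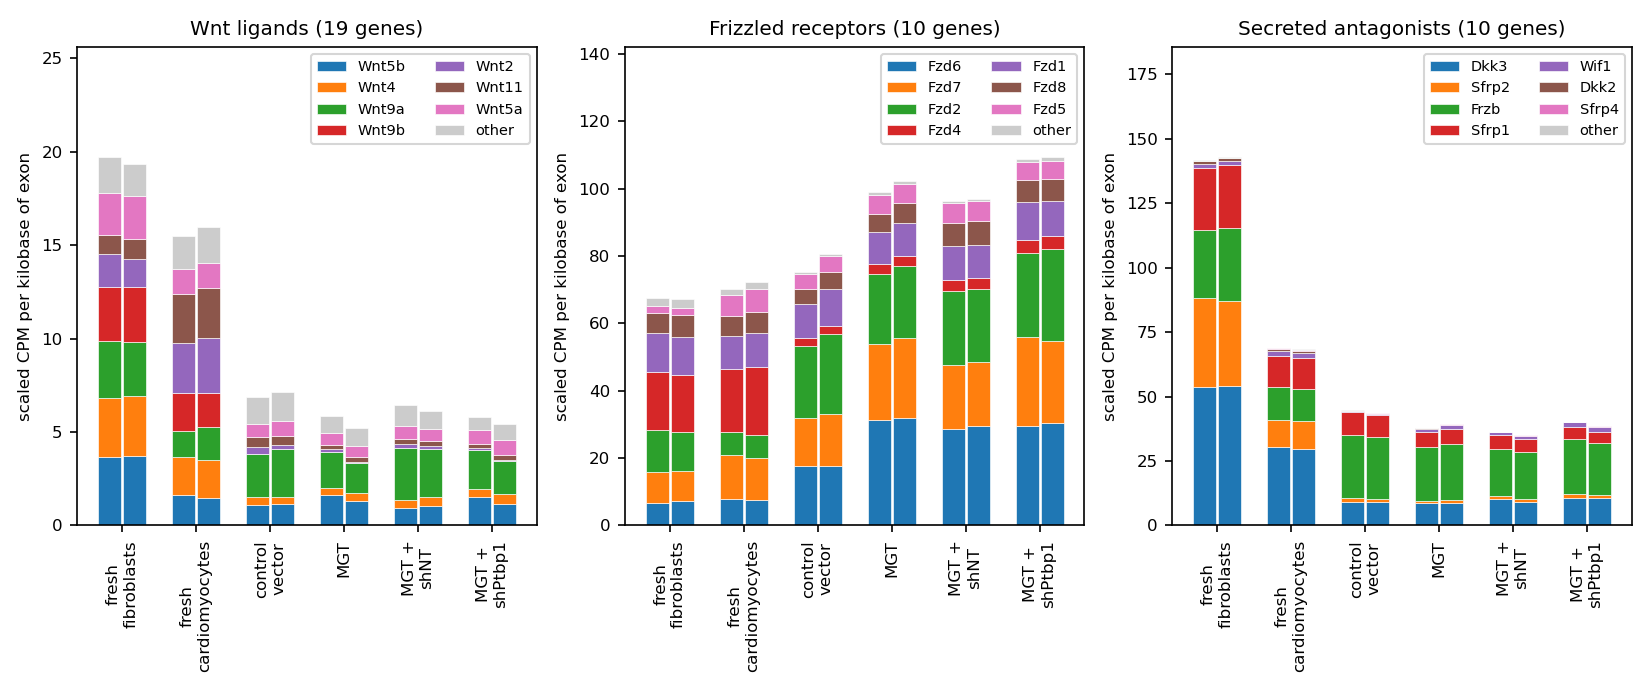
Stacked bars of scaled CPM per kilobase of exon (vertical axis, from 0) for the Wnt ligands, the Frizzled receptors and the secreted antagonists, 1 bar per library and 2 per group, coloured by gene. The ligand and antagonist bars are shorter in all cultured groups than in fresh cells, the receptor bars are taller with MGT, and Fzd4 (red, middle panel) gives way to Fzd6, Fzd7 and Fzd2.

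The make-up of each family also differed. Fzd4, the receptor of the non-Wnt ligand Norrin in blood vessels, was the largest part of the Frizzled sum in fresh cells, at 25.4% and 25.3% in fibroblasts and 27.0% and 27.9% in cardiomyocytes. In the control cultures it was 3.049% and 3.004% of that sum. There Fzd2 led with 28.6% and 29.4%, and with MGT Fzd6 led with 31.5% and 31.2%. Among the antagonists Dkk3, a divergent Dickkopf protein, held 38.0% and 37.9% in fresh fibroblasts, and Frzb (also called Sfrp3) held 55.2% and 55.6% in the control cultures. Among the ligands the leading place passed from Wnt5b in fresh fibroblasts (18.5% and 19.1%) to Wnt9a in the control cultures (33.0% and 35.8%). Neither Frzb nor Wnt9a was itself higher in the control cultures. Their means were 24.42 and 2.411 scaled CPM per kilobase there, and 27.26 and 2.935 in fresh fibroblasts.

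Cardiomyocytes were compared with fibroblasts, both fresh, as the reference cell types of the series. Of 10 ligands tested 5 were lower in cardiomyocytes and 3 (Wnt11, Wnt2 and Wnt2b) were higher. The call of Wnt2b was lost in an alternative run. Of 7 antagonists 5 were lower and Sfrp4 was higher. Of 10 Frizzled receptors 4 were higher, with Fzd5 first, and 3 were lower. Of the 36 genes tested 11 were higher in cardiomyocytes and 16 lower, which is 75.0% called against 76.9% of all genes (35.2% higher and 41.7% lower), so the share of called genes was close to the background. Their median log2 fold change was -0.09, and that of all genes -0.05.

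Wnt11, a ligand of the beta-catenin-independent branch known from heart formation, was 10.82 and 10.99 scaled CPM in cardiomyocytes and 4.39 and 4.41 in fibroblasts. This was a log2 fold change of 1.22 (SE 0.12, adjusted p = 2.01e-08). Wnt2 was higher by 0.72 (SE 0.17, adjusted p = 0.000693). Its 2 values were 6.00 and 6.63 in cardiomyocytes and 3.94 and 3.36 in fibroblasts, without overlap. Lower in cardiomyocytes were Wnt5b (-1.16), Wnt9a (-0.85), Wnt5a (-0.73), Wnt4 (-0.63) and Wnt9b (-0.57). Wnt5a, the best known ligand of the polarity branch, was 10.4 and 10.7 in cardiomyocytes and 17.4 and 18.3 in fibroblasts. Wnt4 was 8.49 and 8.65 against 13.4 and 13.6.

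Among the receptors Fzd5 differed most, with 42.6 and 46.1 scaled CPM in cardiomyocytes and 15.1 and 16.4 in fibroblasts, a log2 fold change of 1.47 (SE 0.06, adjusted p = 1.58e-14). Fzd7, Fzd4 and Fzd6 were higher by 0.48, 0.19 and 0.17, and Fzd2, Fzd3 and Fzd1 were lower by -0.81, -0.50 and -0.22. Both co-receptors were lower, Lrp5 by -0.50 and Lrp6 by -0.52. Among the antagonists Sfrp2, which binds Wnts through its Frizzled-like domain, was 23.1 and 22.7 in cardiomyocytes and 73.9 and 71.2 in fibroblasts (log2 fold change -1.64, SE 0.12, adjusted p = 2.68e-10). Frzb, Sfrp1 and Dkk3 were lower by -1.11, -0.98 and -0.84.

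The feedback gene Axin2, a widely used readout of canonical activity, went the other way: 10.9 and 13.1 scaled CPM in cardiomyocytes, 6.93 and 7.45 in fibroblasts (log2 fold change 0.70, SE 0.15, adjusted p = 0.00031). Ctnnb1 was higher by 0.18, at 770 and 763 against 675 and 682. Lef1 was 2.16 and 2.63 in cardiomyocytes and 3.13 and 2.19 in fibroblasts, and these ranges overlapped (adjusted p = 0.509). Tcf7 was 6.18 and 7.21 in cardiomyocytes and 5.39 and 5.28 in fibroblasts. The call of Tcf7 (0.30, adjusted p = 0.0468) was lost without fibroblast replicate 1, fibroblast replicate 2 or cardiomyocyte replicate 2, with adjusted p of 0.103, 0.135 and 0.272. Dkk2 (-0.42) had an adjusted p of 0.0708 without cardiomyocyte replicate 1. The 10 endothelial markers summed to 5416 to 5456 in cardiomyocytes and 4055 to 4086 in fibroblasts, and the macrophage markers to 576.9 to 577.3 and 1003 to 1004. The smooth muscle and pericyte markers, 7 of 8 lower and 1 higher, summed to 808.1 to 808.2 and 1621 to 1652. No marker was at 0, and the part of these cells in the differences was not tested. In bulk libraries fewer cells of a type and less RNA per cell cannot be told apart.

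Control cultures against fresh fibroblasts gave the widest difference for these genes. Culture, virus and time cannot be told apart in it. The control cultures also had higher values of the MGT factors, with means of 661 scaled CPM for Tbx5, 322 for Mef2c and 358 for Gata4. Fresh fibroblasts had 7.23, 139 and 219. The part of the factors in this comparison was not tested. All 10 ligands tested were called, 9 lower and Wnt16 higher. The 7 antagonists tested, both co-receptors and all 4 readout genes were lower, and the Frizzled receptors were divided, with 6 lower and 4 higher. In all, 5 of the 36 genes were higher and 30 lower, 97.2% against 86.9% of all genes (43.5% higher and 43.4% lower). Their median log2 fold change was -1.21, and that of all genes 0.00. These counts cannot be read as a trend of the 49 genes. Of the 36, 10 reached 1 CPM in fresh libraries only and none in cultured libraries only. The filter thus kept genes that were low in culture. These 10 were Dkk2, Fzd9, Fzd10, Lef1, Sfrp4, Tcf7, Wnt2, Wnt2b, Wnt9b and Wnt10b. That they were lower in culture is not a result apart from the filter. Of the 15 genes with a mean of at least 10 scaled CPM over all 12 libraries, 11 were lower and 4 higher. This mean also uses the fresh libraries, so this count is not free of the same limit. The share over all genes with such a mean was not computed. Without further scaling of the CPM the median of all genes in this comparison was -0.10.

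**Figure D2:**
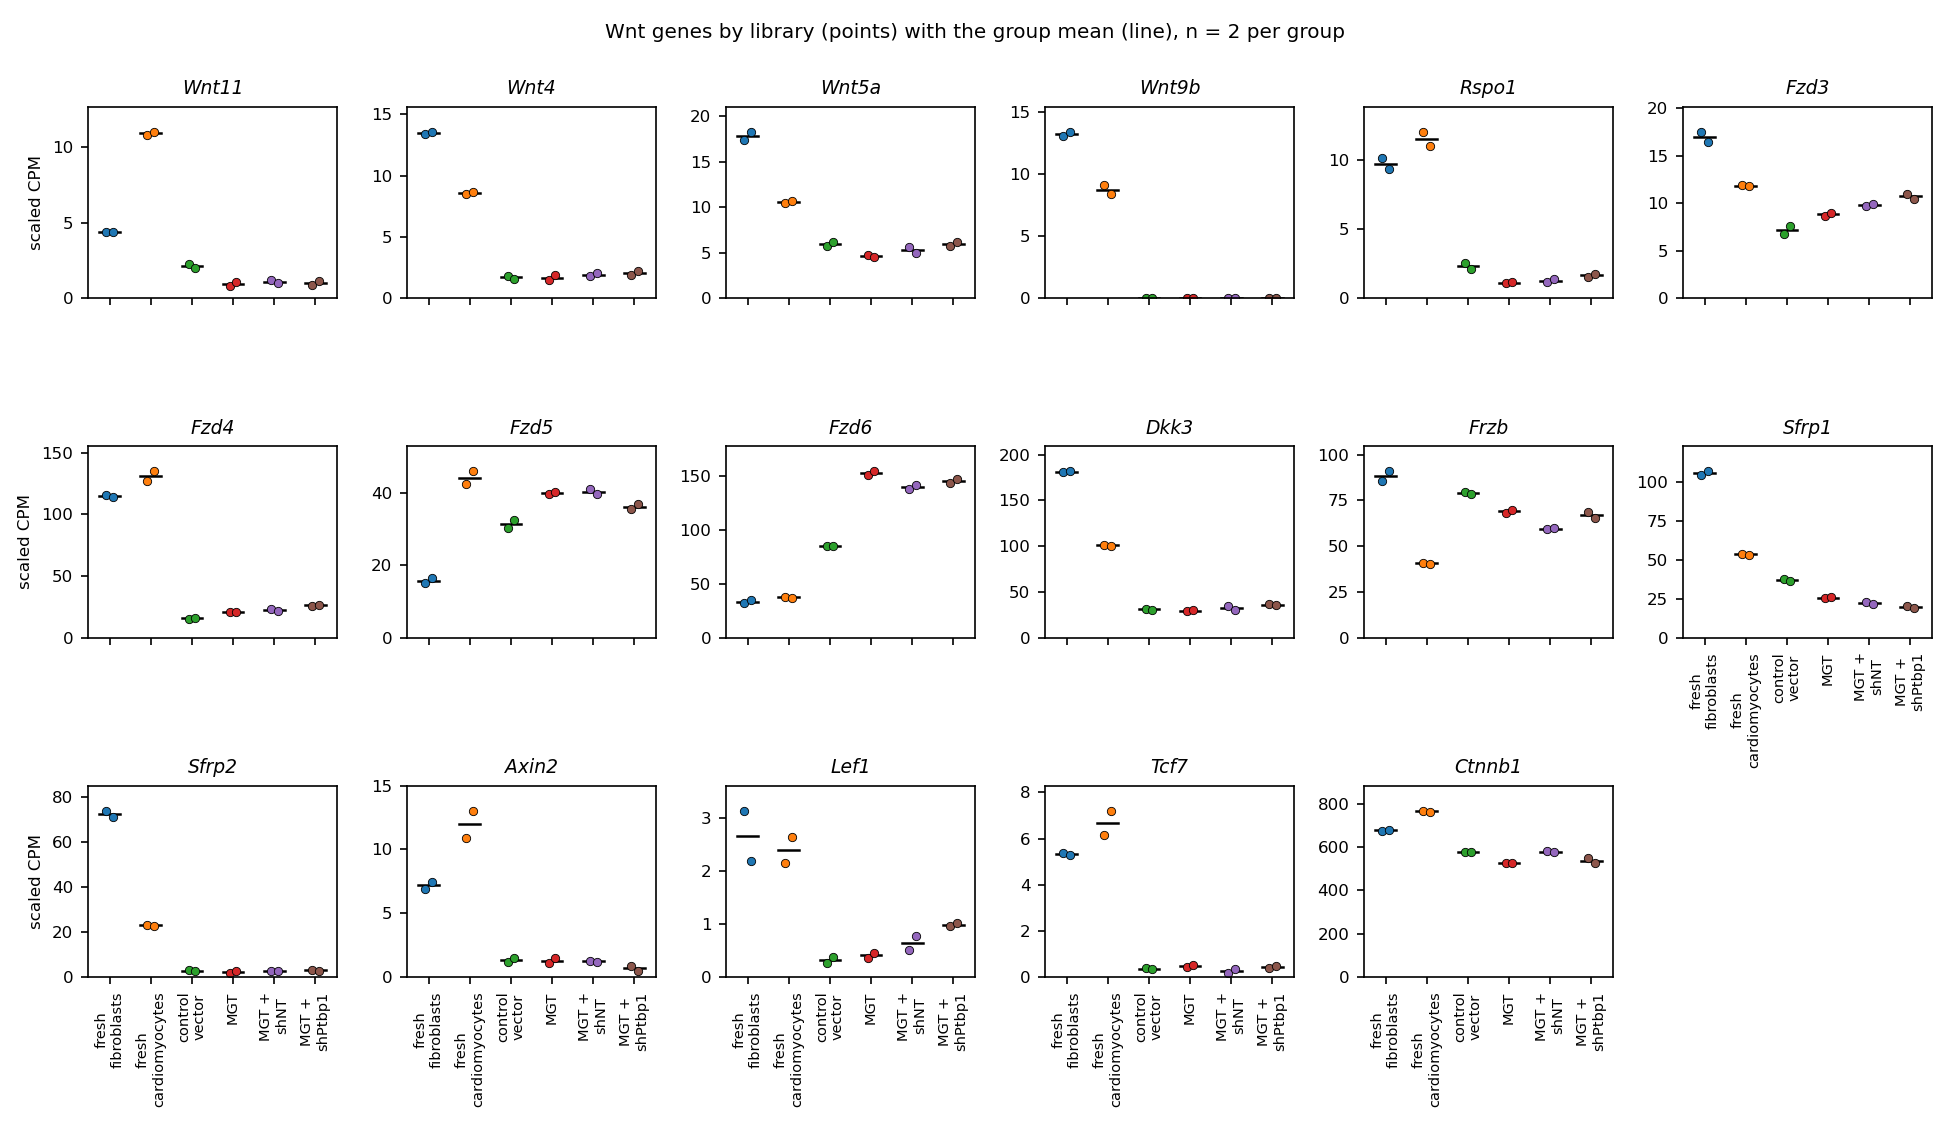
Scaled CPM (vertical axis, linear and from 0, a scale for each gene) of 17 genes in every library (points) with the mean of each group (line), n = 2 per group. Wnt9b, Sfrp2 and Dkk3 drop from fresh to cultured cells, Fzd6 rises in culture and again with MGT, and Lef1 and Tcf7 stay below 1.1 scaled CPM in all cultured libraries.

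Wnt9b (chromosome 11, 103727364 to 103749821, minus strand), a ligand known from kidney development, was 13.1 and 13.4 scaled CPM in fresh fibroblasts and 9.11 and 8.37 in cardiomyocytes. In the 8 cultured libraries it was between 0 and 0.0127. Over both libraries of each group, the control cultures had 1 read and the fresh fibroblasts 2283. The ratio of these pooled reads, corrected for depth and scaling, was 2402, with a 95% exact counting interval from 431 to 94930. PCR reads without molecular identifiers are not independent molecules, and pooling leaves out the spread between libraries. This interval thus covers counting error only. Wnt9b passed the filter through fresh libraries only, so its fall in culture is not a result apart from the filter. Wnt4 was 13.4 and 13.6 in fresh fibroblasts and 1.85 and 1.60 in the control cultures (log2 fold change -2.65, SE 0.12, adjusted p = 4.27e-14). Wnt5a fell less, from 17.4 and 18.3 to 5.74 and 6.21 (-1.50, SE 0.09, adjusted p = 3.59e-12). Wnt5b and Wnt11 fell by 1.57 and 0.90 on the log2 scale. Wnt2, Wnt10b and Wnt2b were lower by 1.83, 2.02 and 1.22, but they too passed the filter through fresh libraries only. Wnt16, a ligand known from bone and joint tissue, was 4.99 and 5.56 against 2.74 and 2.30 and rose by 0.94 (SE 0.12, adjusted p = 5.26e-07). Rspo1 was 10.2 and 9.36 in fresh fibroblasts and 2.55 and 2.15 in the control cultures (-1.85, SE 0.11, adjusted p = 8.95e-12). Rspo2 fell by 1.00, and Rspo3 was 1.47 and 0.915 against 1.57 and 1.43, without a call (adjusted p = 0.0901).

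The receptors parted within the family. Fzd4 (chromosome 7, 89404355 to 89413134, plus strand) was 116 and 114 scaled CPM in fresh fibroblasts and 15.4 and 16.3 in the control cultures, a log2 fold change of -2.82 (SE 0.05, adjusted p = 1.97e-20). Fzd6 (chromosome 15, 39006034 to 39038188, plus strand), known from the polarity of hair follicles, was 31.6 and 34.4 in fresh fibroblasts and 84.7 and 84.6 in the control cultures. This rise was 1.35 (SE 0.04, adjusted p = 1.59e-16). Fzd5 was 15.1 and 16.4 in fresh fibroblasts and 30.3 and 32.5 in culture, and rose by 0.97 (SE 0.06, adjusted p = 2.54e-12). Fzd2 and Fzd7 rose by 0.91 and 0.70. Fzd3 was 17.5 and 16.5 and then 6.76 and 7.60, a fall of 1.19 with no overlap (SE 0.08, adjusted p = 2.13e-11). Fzd10 and Fzd9, both low genes that passed the filter through fresh libraries only, were lower by 1.70 and 1.17. Fzd8 fell by 0.35. Of the co-receptors Lrp5 fell by 0.65, and Lrp6 moved little (-0.14).

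Sfrp2 had the largest fall among the antagonists, from 73.9 and 71.2 scaled CPM to 2.90 and 2.63 (log2 fold change -4.49, SE 0.12, adjusted p = 1.47e-17). Dkk3 was 181 and 182 in fresh fibroblasts and 31.1 and 30.4 in the control cultures (-2.54, SE 0.05, adjusted p = 4.15e-19). Sfrp1 went from 105 and 107 to 37.6 and 36.6 (-1.50, SE 0.05, adjusted p = 4.32e-16). Frzb, by contrast, was 85.6 and 90.9 and then 79.7 and 78.4, a change of only -0.16 (SE 0.04, adjusted p = 0.00145). Wif1 fell by 1.66. Dkk2 was lower by 2.24, but it passed the filter through fresh libraries only.

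All 4 readout genes were called lower, but Lef1 and Tcf7 are among the 10 genes that passed the filter through fresh libraries only. Axin2 was 6.93 and 7.45 scaled CPM in fresh fibroblasts and 1.18 and 1.46 in the control cultures (log2 fold change -2.08, SE 0.15, adjusted p = 9.55e-11). Tcf7 was 5.39 and 5.28 and then 0.388 and 0.328 (-2.77, SE 0.13, adjusted p = 1.74e-13). Lef1 was 3.13 and 2.19 and then 0.258 and 0.384 (-1.93, SE 0.16, adjusted p = 7.86e-10). In each of these 3 genes both control libraries lay below both fresh ones. Ctnnb1 itself was 675 and 682 and then 577 and 579, a fall of 0.23 (SE 0.03, adjusted p = 3.79e-06). Of the 10 fibroblast markers 5 were lower in the control cultures and 3 higher. Their sums were 20750 to 22910 scaled CPM against 40930 to 41850. Markers of other cells moved in the same comparison as well. All 10 endothelial markers were lower in the control cultures, with a median log2 fold change of -4.94, and their sum was 168 to 172 scaled CPM against 4055 to 4086. The smooth muscle and pericyte markers summed to 8137 to 8408 against 1621 to 1652, with 4 of 8 higher and 3 lower, and the macrophage markers to 1740 to 1779 against 1003 to 1004, with 8 of 10 higher and 2 lower. Of the cardiomyocyte markers 8 of 10 were lower and 2 higher, with a median of -3.41 and sums of 2490 to 2681 against 1787 to 1832. Within these sums Tnnt2 was 2423 and 2187 in the control cultures against 182 and 190. No marker was at 0, and their part in the Wnt genes' changes was not tested. The calls of Fzd1, Sfrp4 and Wnt9a (-0.14, -0.34 and -0.27) were lost in some fits. Without fibroblast replicate 1, fibroblast replicate 2 or control replicate 1, Fzd1 and Wnt9a had adjusted p from 0.0545 to 0.225, and Sfrp4 had 0.138, 0.0563 and 0.112 without fibroblast replicate 2, control replicate 1 and control replicate 2.

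The promoters of 2 readout genes and of 2 ligands with large differences are shown, since Tcf7 and Lef1 bind sites built on the letters CAAAG. Each run is the 250 bases before a start annotated by RefSeq (GRCm38.p6), read 5′ to 3′ on the gene's strand, with CAAAG or its reverse complement CTTTG in capitals.
Axin2, chr11:108920099-108920348, plus strand: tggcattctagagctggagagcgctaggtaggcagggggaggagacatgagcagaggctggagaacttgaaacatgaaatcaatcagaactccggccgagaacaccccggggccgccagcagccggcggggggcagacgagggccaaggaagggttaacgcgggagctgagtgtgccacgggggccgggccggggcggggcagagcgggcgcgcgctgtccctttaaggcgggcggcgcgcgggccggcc
Lef1, chr3:131156044-131156293, plus strand: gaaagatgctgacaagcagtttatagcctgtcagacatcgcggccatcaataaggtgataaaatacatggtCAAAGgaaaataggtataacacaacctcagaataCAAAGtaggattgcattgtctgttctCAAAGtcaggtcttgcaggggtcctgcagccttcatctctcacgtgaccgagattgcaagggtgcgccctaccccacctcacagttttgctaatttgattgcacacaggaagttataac
Wnt9b, chr11:103749822-103750071, minus strand: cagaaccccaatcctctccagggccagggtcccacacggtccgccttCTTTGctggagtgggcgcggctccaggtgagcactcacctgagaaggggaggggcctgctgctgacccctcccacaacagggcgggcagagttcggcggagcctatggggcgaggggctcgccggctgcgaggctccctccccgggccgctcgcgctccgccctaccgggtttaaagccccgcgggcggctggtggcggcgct
Wnt11, chr7:98834862-98835111, plus strand: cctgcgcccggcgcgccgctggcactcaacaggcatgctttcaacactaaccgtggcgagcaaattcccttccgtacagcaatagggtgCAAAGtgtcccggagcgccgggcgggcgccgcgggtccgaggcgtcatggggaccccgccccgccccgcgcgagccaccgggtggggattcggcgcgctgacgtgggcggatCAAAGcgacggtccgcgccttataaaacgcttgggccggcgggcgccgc
The Lef1 window lies before a start inside the gene and has 3 matches, Wnt11 has 2, Wnt9b has 1 and Axin2 has 0 in a window with 69.2% G and C. These are the windows with the most matches for Lef1 and Wnt11: the other 3 Lef1 windows have 1, 2 and 1, and the other Wnt11 window has 0. In all, 33 of the 49 genes matched the RefSeq table, with 41 windows. The letters CAAAG on either strand were in 18 of these 41 windows (43.9%) and in 48.6% of all 32851 windows of the same length. The longer TCAAAG, which contains them, was in 6 windows (14.6%) and in 13.8% of all. A match is a description of the letters, not of a bound site.

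MGT against control addressed the early response to the factors. The control cultures were not free of reads of these factors. Means with MGT and in control were 1809 and 661 scaled CPM for Tbx5, 741 and 322 for Mef2c, and 692 and 358 for Gata4. Of 10 Frizzled receptors 6 were called higher (Fzd3, Fzd4, Fzd5, Fzd6, Fzd7 and Fzd8, of which Fzd3 and Fzd8 lost the call without 1 library) and none lower. Wif1, Wnt5b, Rspo2 and the co-receptor Lrp6 were also higher. Of 10 ligands tested, 6 were lower, and of 7 antagonists 4 were lower (Frzb, Sfrp1, Sfrp2 and Sfrp4). In all, 10 of the 36 genes were higher and 12 lower, 61.1% against 35.6% of all genes (17.9% higher and 17.7% lower), with a median log2 fold change of -0.02 against -0.01. The control libraries are also 1 side of the culture comparison above, so the 2 sets of changes are not independent.

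Fzd6 had the clearest change among the receptors, with 150.3 and 154 scaled CPM with MGT and 84.7 and 84.6 in control (log2 fold change 0.84, SE 0.04, adjusted p = 1.82e-11). Fzd7, a receptor used by both branches, was 103 and 107 against 64.8 and 70.5 (0.63, SE 0.05, adjusted p = 1.05e-08). Fzd4 was 20.42 and 20.97 against 15.4 and 16.3 (0.37, SE 0.05, adjusted p = 6.19e-06). Fresh fibroblasts had 114 to 116 and fresh cardiomyocytes 127.2 and 135.1. Fzd5 was 39.8 and 40.5 against 30.3 and 32.5 (0.35, SE 0.06, adjusted p = 6.16e-05). Fresh cardiomyocytes had 42.6 and 46.1 and fresh fibroblasts 15.1 and 16.4. For Fzd6 the means were 37.3 in fresh cardiomyocytes and 33.0 in fresh fibroblasts, and for Fzd7 57.9 and 41.5. These lay below both the control and the MGT cultures. In each of these 4 receptors both MGT libraries lay above both control libraries. Fzd1 and Fzd2 were not called (-0.12 with SE 0.05 and -0.10 with SE 0.05). Fzd3 was 8.63 and 9.01 against 6.76 and 7.60 (0.28, SE 0.08, adjusted p = 0.0076).

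Wif1, which traps Wnts outside the cell, was the only gene of the 36 with a called change of at least 1 log2 unit with 0.5 added. Without that addition the group means of Wnt2b, Sfrp4, Wnt11, Wnt2 and Rspo1, all low genes, were 2.58-fold, 2.37-fold, 2.28-fold, 2.21-fold and 2.06-fold lower. Wif1 was 3.53 and 3.72 scaled CPM with MGT and 1.303 and 0.881 in control (log2 fold change 1.39, SE 0.12, adjusted p = 7.34e-08). Fresh fibroblasts had 4.40 and 4.56. Sfrp1 was 25.3 and 25.7 against 37.6 and 36.6 (-0.53, SE 0.05, adjusted p = 1.06e-07), and Frzb was 68.1 and 69.9 against 79.7 and 78.4 (-0.20, SE 0.04, adjusted p = 0.000938). Dkk3 was 28.6 and 29.7 against 31.1 and 30.4 and was not called (-0.08, SE 0.05, adjusted p = 0.281).

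Among the ligands Wnt11 was 0.825 and 1.05 scaled CPM with MGT and 2.24 and 2.02 in control, a log2 fold change of -0.88 (SE 0.12, adjusted p = 1.11e-05). Fresh cardiomyocytes, in which Wnt11 was highest, had 10.82 and 10.99. Wnt16 fell by 0.71 (SE 0.12, adjusted p = 0.000129), from 4.99 and 5.56 to 3.21 and 2.86. Wnt2b, Wnt2, Wnt9a and Wnt5a fell by 0.49, 0.56, 0.44 and 0.34. Rspo1 was 1.11 and 1.17 against 2.55 and 2.15 (-0.79, SE 0.11, adjusted p = 2.12e-05), whereas Rspo2, with the same kind of activity, was 1.01 and 0.947 against 0.700 and 0.542 (0.40, SE 0.13, adjusted p = 0.021).

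Axin2, Lef1 and Tcf7 were not called. Axin2 was 1.10 and 1.47 scaled CPM with MGT and 1.18 and 1.46 in control, with overlap (log2 fold change -0.03, SE 0.15, adjusted p = 0.885). Lef1 was 0.365 and 0.446 against 0.258 and 0.384 (0.14, SE 0.16), and Tcf7 was 0.436 and 0.512 against 0.388 and 0.328 (0.18, SE 0.13). Changes of the size of these SEs were not detectable at this depth and replication. Ctnnb1 was 527 and 528 against 577 and 579, a small fall of 0.13 (SE 0.03, adjusted p = 0.00538).

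Of the 22 calls 12 held under every alternative run: Fzd4, Fzd5, Fzd6, Fzd7 and Wif1 higher, and Ctnnb1, Frzb, Rspo1, Sfrp1, Wnt11, Wnt16 and Wnt2b lower. The other 10 each lost the call without at least 1 library. Without MGT replicate 2 these were Fzd3, Fzd8, Lrp6, Rspo2, Wnt2, Wnt5a and Wnt9a (adjusted p from 0.0532 to 0.374), and 6 genes were called higher. Without control replicate 1 they were Fzd3, Fzd8, Lrp6, Sfrp2, Wnt2 and Wnt5b (0.0918 to 0.208). Without MGT replicate 1 they were Rspo2, Sfrp2, Sfrp4 and Wnt5b (0.0508 to 0.349), and without control replicate 2 they were Rspo2, Wnt5a, Wnt5b and Wnt9a (0.0512 to 0.172). Markers moved as well, where 17.9% of all genes were higher and 17.7% lower. Of 10 cardiomyocyte markers 8 were higher with MGT and 1 lower (sums of 3608 to 3802 against 2490 to 2681). Most of these sums was Tnnt2, at 3061 and 3241 against 2423 and 2187. Of 10 fibroblast markers 8 were lower and 1 higher (16860 to 17060 against 20750 to 22910). Of 10 endothelial markers 7 were lower and 1 higher (121 to 130 against 168 to 172). The part of these marker changes in the results was not tested.

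**Figure D3:**
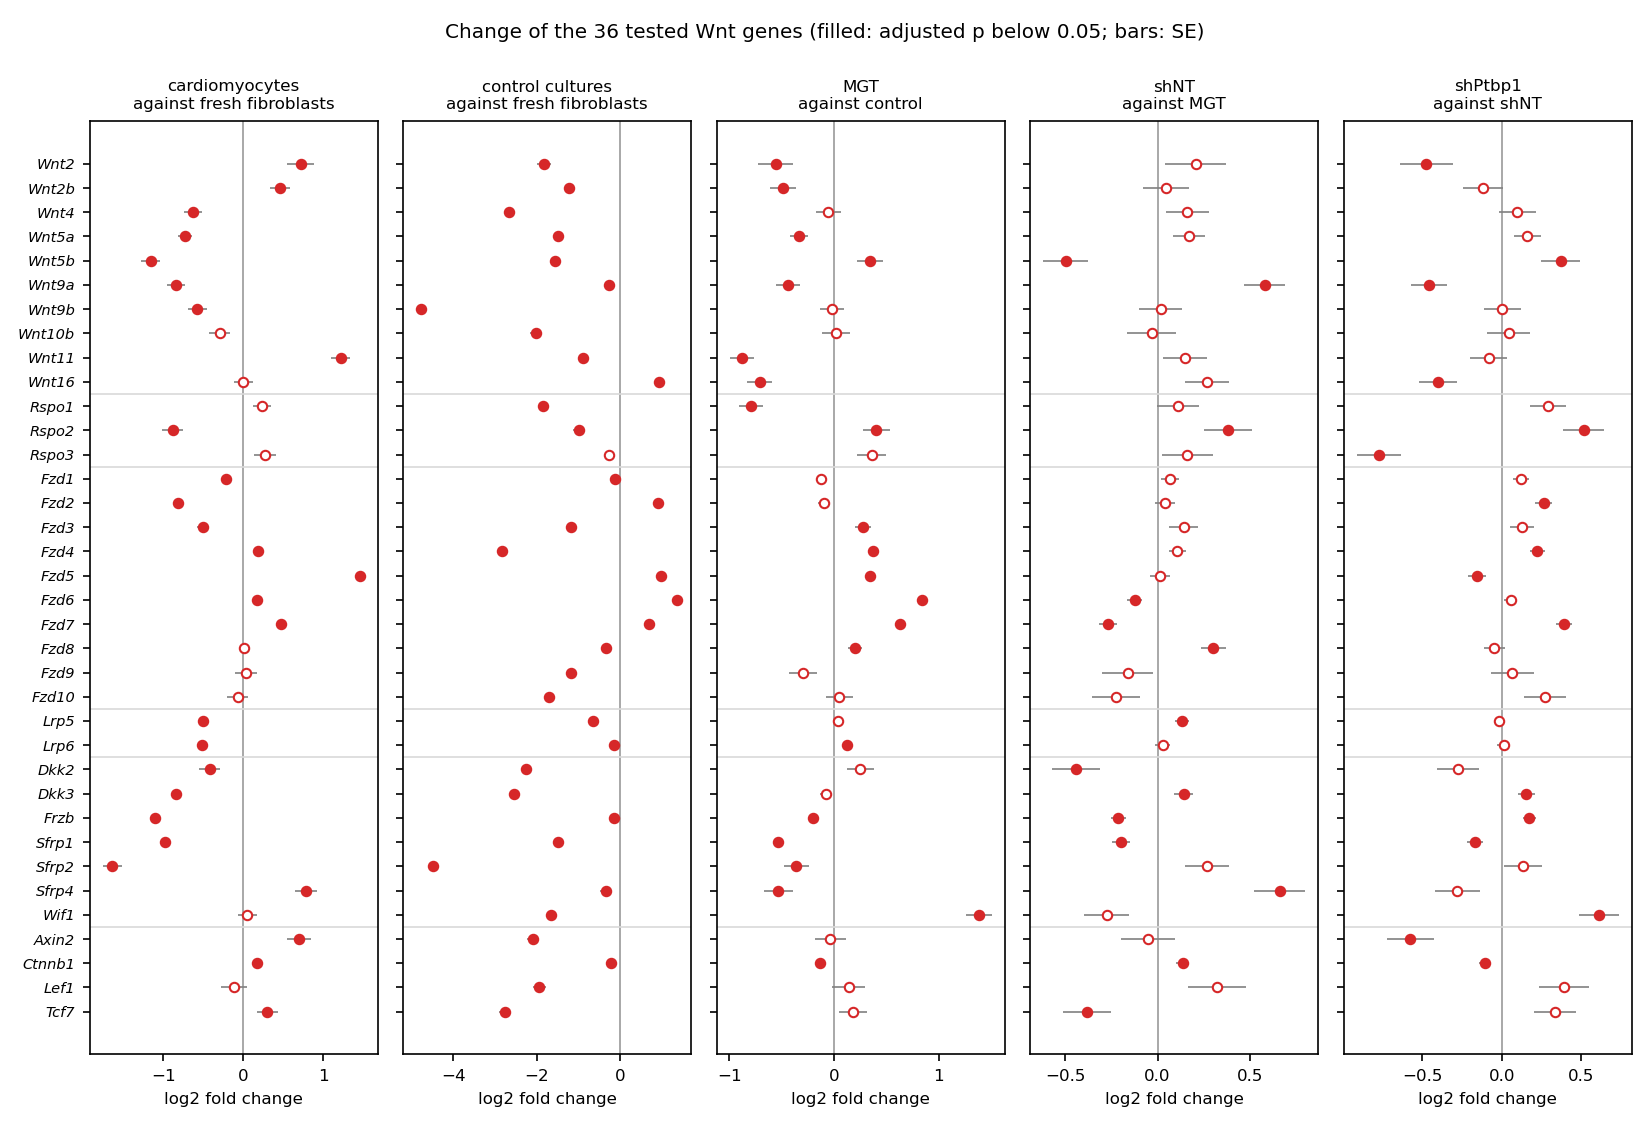
Log2 fold changes (horizontal axis, a scale for each panel) of the 36 genes tested in the 5 comparisons, ordered by role, with bars for the SE and filled points where the adjusted p is below 0.05. With MGT the 6 filled Frizzled points all lie to the right of 0, and Wif1 at 1.39 is the only point beyond 1 on either side.

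MGT with shNT against MGT alone compares cultures with and without the second virus. Changes were small and went both ways, with 7 of the 36 genes higher and 7 lower, 38.9% against 44.7% of all genes (24.6% higher and 20.1% lower), and no called change reached 1 log2 unit with 0.5 added to the scaled CPM. Without that addition the group means of Sfrp4 and Dkk2 differed 2.81-fold and 2.29-fold. Sfrp4 and Wnt9a had the largest increases on the log2 scale used, by 0.66 (SE 0.14, adjusted p = 0.00071) and 0.58 (SE 0.11, adjusted p = 0.000326). Wnt9a was 9.27 and 8.56 scaled CPM with shNT and 6.37 and 5.26 with MGT alone. Fzd8 rose by 0.30 and Ctnnb1 by 0.14, from 527 and 528 to 583 and 577. Fzd7 fell by 0.27 (SE 0.05, adjusted p = 0.000185), from 103 and 107 to 87.2 and 87.1, and Frzb by 0.21, from 68.1 and 69.9 to 59.1 and 59.8. Sfrp1 fell by 0.20.

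Axin2 was 1.23 and 1.19 with shNT and 1.10 and 1.47 with MGT alone (log2 fold change -0.05, SE 0.15, adjusted p = 0.813). Lef1 was 0.502 and 0.779 against 0.365 and 0.446, without a call (0.32, SE 0.16, adjusted p = 0.106). Tcf7 was 0.171 and 0.332 against 0.436 and 0.512 and was called lower (-0.38, SE 0.13, adjusted p = 0.0245). Of the 14 calls 7 held under every alternative run: Ctnnb1, Fzd8, Sfrp4, Wnt9a, Frzb, Fzd7 and Sfrp1. Without MGT replicate 2 the calls of Dkk2, Dkk3, Fzd6, Rspo2 and Tcf7 were lost (adjusted p from 0.0578 to 0.136), and without shNT replicate 1 those of the same genes and Lrp5 (0.053 to 0.625). In both cases the number of genes lower became 4. Without MGT replicate 1 the calls of Dkk3, Lrp5, Rspo2 and Wnt5b were lost (0.0619 to 0.196), which left 4 genes higher. All 10 macrophage markers were lower with shNT, with a median of -1.94 and sums of 531 to 540 against 1767 to 1770. Of 10 endothelial markers 7 were higher and 2 lower, with a median of 0.55 and sums of 134 to 142 against 121 to 130. None of these markers was at 0, and their part in these results was not tested.

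MGT with shPtbp1 against MGT with shNT addressed the depletion of the splicing repressor Ptbp1. Again 8 of the 36 genes were higher and 8 lower, 44.4% against 34.8% of all genes (16.7% higher and 18.1% lower), and no called change reached 1 log2 unit with 0.5 added to the scaled CPM. Without that addition the group means of Rspo3 and Wnt2 differed 2.09-fold and 2.55-fold. The receptors Fzd7, Fzd2 and Fzd4 rose. Fzd7 was 119 and 109 scaled CPM with shPtbp1 and 87.2 and 87.1 with shNT (log2 fold change 0.39, SE 0.05, adjusted p = 5.19e-06). Fzd2 was 91.3 and 99.9 against 79.7 and 79.5 (0.26, SE 0.05, adjusted p = 0.000872). Fzd4 was 26.0 and 26.3 against 23.0 and 21.7 (0.22, SE 0.05, adjusted p = 0.0013). In these 3 receptors the groups did not overlap. Fzd6, the leading receptor of all MGT cultures per kilobase, was 143 and 147 against 137 and 142 and was not called (0.06, SE 0.04, adjusted p = 0.325).

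Wif1 rose by 0.61 (SE 0.12, adjusted p = 0.000779), from 2.77 and 3.04 to 4.27 and 5.16 scaled CPM. Rspo3 fell from 1.92 and 1.89 to 0.813 and 1.01 (log2 fold change -0.77, SE 0.14, adjusted p = 0.000269). Rspo2 moved the other way, at 2.00 and 2.54 against 1.505 and 1.352 (0.51, SE 0.13, adjusted p = 0.0048). Frzb rose by 0.17, from 59.1 and 59.8 to 68.8 and 65.4. Wnt2, Wnt9a and Wnt16 fell by 0.47, 0.46 and 0.40 and Wnt5b rose by 0.37. This comparison shares the shNT libraries with shNT against MGT alone. There Frzb, Fzd7, Wnt5b, Wnt9a and Ctnnb1 were called the opposite way, and Sfrp1, Dkk3 and Rspo2 the same way. Means with MGT alone, shNT and shPtbp1 were 68.97, 59.45 and 67.1 for Frzb and 104.9, 87.1 and 114.4 for Fzd7. They were 3.925, 2.618 and 3.556 for Wnt5b, and 5.812, 8.914 and 6.385 for Wnt9a. For Ctnnb1 they were 527.7, 580.0 and 538.2.

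Axin2 was 0.851 and 0.477 scaled CPM with shPtbp1 and 1.23 and 1.19 with shNT (log2 fold change -0.57, SE 0.15, adjusted p = 0.00526). Both shPtbp1 libraries lay below every other library for this gene. Lef1 was 0.953 and 1.01 against 0.502 and 0.779, which is the opposite direction, without a call (0.39, SE 0.16, adjusted p = 0.0646). Tcf7 was 0.394 and 0.491 against 0.171 and 0.332 (0.33, SE 0.13, adjusted p = 0.0582). Ctnnb1 was 549 and 528 against 583 and 577 and was called lower (-0.11, SE 0.03, adjusted p = 0.0193). Of the 4 readout genes 2 were thus called lower and 2 were not called. Of the 16 calls 6 held under every alternative run: Frzb, Fzd2, Fzd4, Fzd7 and Wif1 higher, and Rspo3 lower. Without shPtbp1 replicate 2 the calls of Axin2, Ctnnb1, Dkk3, Rspo2, Sfrp1, Wnt2 and Wnt9a were lost (adjusted p from 0.0523 to 0.245), and without shNT replicate 1 those of Ctnnb1, Fzd5, Sfrp1, Wnt16, Wnt2 and Wnt5b (0.102 to 0.178). In both cases 3 genes were called lower. Without shNT replicate 2 Ctnnb1, Dkk3, Fzd5 and Wnt2 were lost (0.0637 to 0.542), with 5 lower, and without shPtbp1 replicate 1 Dkk3, Fzd5, Wnt16 and Wnt5b (0.129 to 0.28). Of 10 cardiomyocyte markers 7 were higher with shPtbp1 and none lower (sums of 4406 to 4684 against 3683 to 3931). Most of these sums was Tnnt2, at 3795 and 4126 against 3167 and 3446. Of 10 macrophage markers 7 were lower and none higher (452 to 459 against 531 to 540). The part of these marker changes in the results was not tested.

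Other genes of the pathway were followed as lists. The secretion genes are Wls, the carrier of Wnts to the surface, and Porcn, the enzyme that adds their lipid. Wls rose by 1.74 in the control cultures, from 95.5 and 93.1 to 315 and 319 scaled CPM, while Porcn fell by 0.99. With shPtbp1 Porcn was 7.07 and 7.55 against 2.75 and 2.73 with shNT, a rise of 1.27. Neither was called with MGT. Of 14 other receptors and receptor regulators tested, 8 were lower and 2 higher in the control cultures, where 43.4% of all genes were lower and 43.5% higher. Their median was -0.48 against 0.00 for all genes, led by Tmem88 (-5.22), an inhibitor of Dishevelled, and the glypican Gpc6 (-2.77). The non-canonical receptors Ror1 and Ror2 were lower in cardiomyocytes than in fresh fibroblasts, by -0.81 and -0.97. With MGT 2 of these 14 were higher, Ror2 (0.52) and Tpbg (0.48), and 5 lower, against 17.9% and 17.7% of all genes.

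Of 18 destruction complex and relay genes, 11 were lower and 3 higher in the control cultures, a called share under the 86.9% of all genes (median -0.16), with Apc2 at -2.65 and the feedback inhibitor Nkd1 at 1.03. With shNT against MGT alone 10 of the 18 were higher and none was called lower, with Dvl2 (0.35), Dvl1 (0.31) and Dvl3 (0.30), the Dishevelled relay proteins, among them, against a background of 24.6% higher. With MGT against control 5 were higher and 5 lower (35.6% of all genes were called). Of 14 nuclear partners 12 were lower and 1 higher in the control cultures, against 43.4% and 43.5% of all genes, with Tle2 (-2.44), a co-repressor, Pygo1 (-1.82), a partner of beta-catenin, and Tcf7l2 (-1.26) among them. With MGT 7 of the 14 were higher and 1 lower, against 17.9% and 17.7% of all genes, led by Tcf7l1 (0.69) and Tcf7l2 (0.42), relatives of Tcf7. The median of the 14 was -0.90 in culture, against 0.00 for all genes, and 0.10 with MGT, against -0.01.

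Genes often used as beta-catenin targets did not follow Axin2 as a group. Of 16 tested, 9 were lower and 6 higher in the control cultures (median -0.28), where 86.9% of all genes were called. Wisp2 and Wisp1, matricellular proteins, rose by 6.69 and 5.38, whereas Apcdd1, a membrane inhibitor, fell by 2.76 and Tnfrsf19 by 2.17. With MGT 4 were higher and 7 lower (median -0.19, with 35.6% of all genes called), with Tnfrsf19 at 0.81 and Wisp2 at -0.67. With shPtbp1 5 were higher and 2 lower (34.8% of all genes called), with the cyclin gene Ccnd1 at 1.02 and Tnfrsf19 at 1.00. Both had been lower with shNT against MGT alone, by -1.69 and -0.97, and the 2 comparisons share the shNT libraries. Of 22 genes of the polarity and calcium branch 14 were lower and 4 higher in the control cultures (median -0.47), again under the called share of 86.9% of all genes, led by the polarity cadherins Celsr1 (-3.54) and Celsr2 (-3.10). With shNT Nfatc2 fell by 2.19, in the comparison in which all 10 macrophage markers were lower. With MGT 7 of the 22 were higher and 4 lower, against 17.9% and 17.7% of all genes, and Camk2a, a kinase of the calcium branch, rose by 0.82. Among 4 other modifiers of the pathway tested, 3 were lower and 1 higher in the control cultures, against 43.4% and 43.5% of all genes. Igfbp4 fell by 2.40 and Cthrc1 rose by 2.50.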

How the data were processed

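Polyadenylated RNA of 12 libraries was sequenced after a kit that keeps strand, per the labels' protocols. The authors deposited 1 table of CPM, 1 column per library, and all 12 columns matched samples by name. The tools were FastQC, HTSeq 0.6.1p1 and TopHat2 2.1.0 and the build mm10, per the submitters' processing notes. Which annotation and which strand option the counting used is not given in the sources used. All values were whole multiples of 1 read within 0.1 reads, which gave back the reads. In 27 rows a number stands in place of the gene name, and these were not named.

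The CPM were divided by median-of-ratios factors (0.966 to 1.06). A gene was kept where 2 or more libraries reached 1 CPM. Then limma 3.58.1 (R 4.3.3, trend) was run on log2(scaled CPM + 0.5) with 1 mean per group over all 12 libraries and 6 residual degrees of freedom. All tests were two-sided, and p-values were adjusted by Benjamini-Hochberg over the 13977 genes within each of 5 comparisons. A permutation of 2 against 2 libraries cannot go below p = 0.333 and was not run. The procedure was tested on simulated data. Alternatives were 2 other scalings, pseudocounts of 0.1 and 2, no filter or 5 CPM, the 4 libraries compared alone, a replicate block, leaving out each replicate, and edgeR 4.0.16 and DESeq2 1.42.0 on the recovered reads.

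The genes and lists were chosen with earlier results of these data known. Values per library are given for genes with a group mean of at least 10 scaled CPM and a called change of at least 1 log2 unit in any comparison, and for Axin2, Lef1, Tcf7 and Ctnnb1. Most other called genes are given by fold change or level and some by name only. Of other lists up to 6 members with the largest called change are named. Positions and exon lengths come from GENCODE annotation of GRCm38, 1-based, and promoter sequences from RefSeq on GRCm38.p6. Figures were drawn with matplotlib 3.10.9.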

Additional observations from a re-analysis of the deposited data

How the results depend on the processing

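No called change of any of the 36 genes reversed its direction under any alternative run. Calls were lost for 3 genes in each of the first 2 comparisons, 10 with MGT, 7 with shNT and 10 with shPtbp1. In the fit of only the 4 libraries compared, 6 genes were higher with MGT and 5 were lower with shPtbp1, and with no filter 5 were lower with shPtbp1. The cause was not tested. Leaving out 1 replicate gave 6 to 8 higher and 9 to 12 lower with MGT, 4 to 7 higher and 4 to 7 lower with shNT, 6 to 10 higher and 3 to 6 lower with shPtbp1, 5 higher and 27 to 29 lower in the control cultures and 10 to 11 higher and 15 to 17 lower in cardiomyocytes. With the replicate block, which treats equal replicate numbers as paired, the counts were 11 higher and 16 lower in cardiomyocytes, 5 and 30 in the control cultures, 10 and 12 with MGT, 7 and 7 with shNT and 8 and 8 with shPtbp1. The labels do not say that equal numbers mark a shared source, and deviations of equal numbers had correlations of 0.05, -0.03, -0.07, 0.03 and 0.31 over 9735 genes, the last of them for shPtbp1 against shNT. The numbers were not taken as pairs, since no label pairs them. Depth limits the 13 genes under the filter and readouts near 1 scaled CPM.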
